A study of Mus musculus with 6 samples.

Results

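The genes described here are 40 genes of mitosis and chromosome segregation in the mouse, from the kinases and cyclins that start cell division to the motors and scaffold proteins that end it. They were chosen by symbol: a probe belonged to a gene if its RefSeq accession carried 1 of the 40 symbols. All 40 were found, on 57 of the 55681 probes of the array, and each was well above background on all 6 arrays. They are 40 of the 24225 features (genes, or unnamed probes) that were tested.

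The arrays measured RNA of adult hippocampal precursor cells, isolated from dentate gyri of male C57BL6/JRj mice at 8 weeks of age and grown as an adherent layer with EGF and bFGF at 20 ng/ml each, mitogens that keep such cells dividing. Cultures of both groups carried these mitogens. One group of 3 arrays came from cultures given saline as the control, and the other group of 3 from cultures given human LDL, the particle that carries cholesterol in blood, for 48 h. The treatment protocol puts LDL at 100 ug/ml, but the descriptions of the samples use another unit of volume, so the dose unit is uncertain. The labels call the replicates independent experiments on different passages of cultured cells, so p-values measure the spread between passages and not between donor animals.

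In dividing cells the genes of mitosis are switched on together late in the cycle. Cyclin A and the B cyclins activate the kinase CDK1, the Aurora and Polo kinases build the spindle, the kinetochore ties each chromosome to microtubules, and a checkpoint holds back the anaphase-promoting complex until every chromosome is attached. Many promoters of these genes carry a short element named CHR (cell cycle genes homology region), bound by the DREAM and MuvB complexes, and CCAAT boxes, bound by the factor NF-Y, while genes of DNA synthesis more often carry E2F sites. In bulk RNA, fewer cells in mitosis and less of a transcript per dividing cell cannot be told apart.

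CHR and CCAAT letters were frequent in the promoters of the 40 genes, a feature that the choice by symbol did not use. The RefSeq promoter table for GRCm38.p6 held 32 of the 40 genes, each with at least 1 window of 300 bases, from 250 before to 50 after the start of the gene. A CHR match (TTTGAA or TTCGAA, either strand) was found for 25 of 32, which is 78.1%, against 21.7% of all 27025 genes in the table. A CCAAT match (either strand) was found for 24 of 32, which is 75% against 41.1%, and 22 of 32 (68.8% against 8.61%) held both. An E2F-type match (TTTCCCGC, TTTGGCGC, TTTCGCGC or TTTGCCGC, either strand) was found for 1 of 32, Cdk1, against 2.6% of all genes and 14 of 33 genes (42.4%) of DNA replication. A match is a description of the letters, not a measured binding site.

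**Figure D1:**
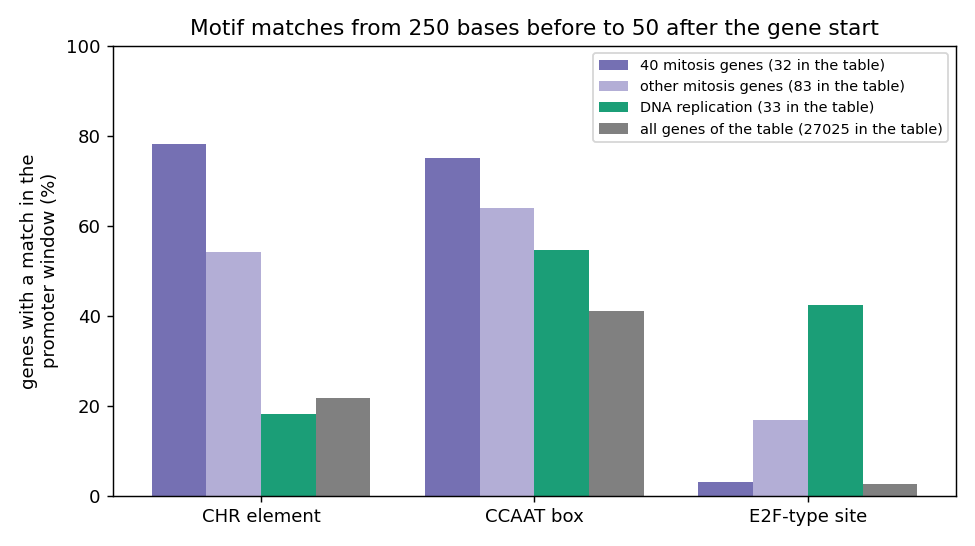
Share of genes, in percent, whose promoter window holds at least 1 match to a CHR element, a CCAAT box or an E2F-type site, for the 40 mitosis genes, a list of other mitosis genes, a list of DNA replication genes and all genes of the RefSeq promoter table. CHR matches were in 78.1% of the mitosis genes in the table and in 18.2% of the replication genes, and E2F-type matches in 3.12% and 42.4%.

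For sequences, the 4 genes with the smallest p in the comparison of LDL with saline were taken among those with a CHR or CCAAT match. The sequences below are the 150 bases before the most downstream annotated start of each. They are read 5′ to 3′ along the gene's strand, from RefSeq in GRCm38.p6, with CHR and CCAAT matches in capitals. Prc1 is at chr7:80294326-80294475 (plus strand), Cdc20 at chr4:118437344-118437493, Ccnb1 at chr13:100786487-100786636 and Ect2 at chr3:27153855-27154004 (all 3 minus strand).
Prc1: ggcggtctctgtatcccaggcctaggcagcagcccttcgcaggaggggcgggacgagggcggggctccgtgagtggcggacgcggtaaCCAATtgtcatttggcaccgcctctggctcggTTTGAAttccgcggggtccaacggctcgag
Cdc20: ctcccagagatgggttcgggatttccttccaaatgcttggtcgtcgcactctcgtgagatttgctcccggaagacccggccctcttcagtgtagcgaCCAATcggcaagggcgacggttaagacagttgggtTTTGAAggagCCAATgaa
Ccnb1: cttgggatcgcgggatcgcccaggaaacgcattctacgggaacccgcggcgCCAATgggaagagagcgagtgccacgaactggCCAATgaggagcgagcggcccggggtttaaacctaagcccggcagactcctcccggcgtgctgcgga
Ect2: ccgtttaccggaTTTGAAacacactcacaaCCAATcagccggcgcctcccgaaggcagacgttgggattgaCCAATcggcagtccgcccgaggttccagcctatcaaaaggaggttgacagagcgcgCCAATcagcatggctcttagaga
Prc1 has 1 CCAAT box followed by 1 CHR match, and Cdc20 a CHR match between 2 CCAAT boxes. Ccnb1 has 2 CCAAT boxes and no CHR match in the stretch shown or in its whole window. Ect2 has 1 CHR match ahead of 3 CCAAT boxes in the stretch shown. Its whole window holds 2 CHR matches, the other one after the start and so downstream of the CCAAT boxes. The 25 genes with a CHR match had a median log2 fold change (LDL minus saline) of -0.12 and the 7 without one -0.22, as a description with no test.

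The comparison of LDL with saline asks which transcripts differ after LDL. Signals below are on a log2 scale with the 75th percentile of their array at 0, and all differences are LDL minus saline on that log2 scale. By a limma moderated test adjusted over all features at a threshold of 0.05, 0 of the 40 genes passed, while 0.12% of all features did (0.107% lower and 0.0124% higher). At an unadjusted limma p below 0.05, 4 genes were counted with lower values after LDL and 0 with higher values, which is 10% of the genes against 7.46% of all features (4.5% lower and 2.96% higher). Of the 40 genes, 36 had a negative difference, which is 90% against 56.2% of all features. The median difference was -0.14, or -9.37% in signal, against -0.03 over all features. The groups did not overlap in 10 of the 40 (25%) with LDL lower and in 0 with LDL higher, against 8.77% and 5.82% of all features. The genes and the comparison were chosen with earlier results of these data known, so these counts are descriptions. As a check of the treatment, Hmgcs1, an enzyme of cholesterol synthesis that cells turn down when sterol is plentiful, fell by 2.15 (limma adjusted p = 0.0106). With 1 array left out its value ran from -2.29 to -2.03, and it passed in 2 of 6 such fits, those leaving out saline replicate 1 or LDL replicate 1 (highest limma adjusted p over the 6, 0.0790). With slide row as a block limma gave an adjusted p of 0.0339, and within slide row 1 the value was -2.20 (limma adjusted p = 0.436).

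**Figure D2:**
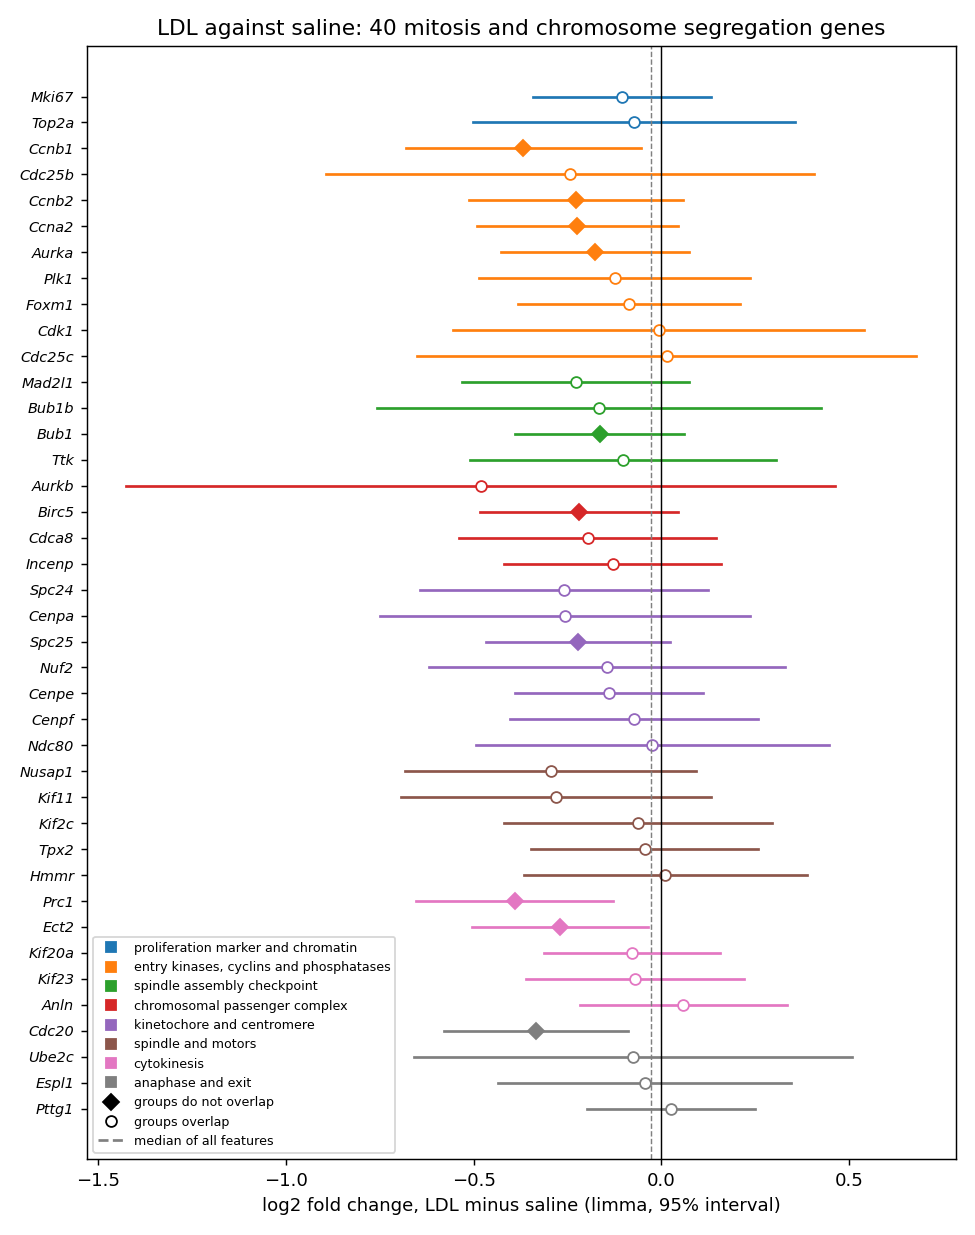
Log2 fold change (LDL minus saline) of the 40 genes with the 95% interval of limma, grouped by role. Filled diamonds mark the 10 genes whose saline and LDL arrays do not overlap, and the dashed line is the median of all features, -0.03. Of the 40 points 36 lie below 0, and the interval of 4 lies wholly below 0.

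The kinases, cyclins and phosphatases that start mitosis, with the factor Foxm1, had negative values in 8 of 9, and 0 of 9 passed. Ccnb1, which encodes the cyclin B1 partner of CDK1, measured 4.08, 4.51 and 4.25 on saline replicates 1 to 3 and 3.89, 3.86 and 3.98 on LDL replicates 1 to 3. The lowest saline array was above the highest LDL array, and the difference was -0.37 (SE 0.13, 95% interval -0.68 to -0.06, limma adjusted p = 0.591). That value came from the brightest of 3 probes for the same accession. The dimmer probes gave -0.07 and -0.04 and overlapped between the groups. On them saline replicate 1 was the lowest of all arrays, at -0.18 and -0.29, and saline replicate 2 the highest, at 0.87 and 0.94.

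For Ccnb2, the other B-type cyclin, the saline arrays measured 3.74, 4.08 and 3.87 and the LDL arrays 3.57, 3.72 and 3.72. The groups did not overlap, by a margin of 0.02 between saline replicate 1 and the highest LDL array, and the difference was -0.23 (limma adjusted p = 0.754). Ccna2, the cyclin of S phase and G2, stood at 3.16, 3.48 and 3.29 in the saline cultures and 3.04, 3.11 and 3.11 in the LDL cultures. Here too the groups stood apart, with a difference of -0.22 (limma adjusted p = 0.740). The other gene of this role with groups that did not overlap was Aurka, the Aurora kinase of the centrosome, at -0.18.

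Cdk1, the kinase that drives entry into mitosis, showed no such separation. Its brightest probe measured 3.92, 3.30 and 4.00 on the saline arrays and 3.39, 3.89 and 3.92 on the LDL arrays, a difference of -0.01 (95% interval -0.55 to 0.54, limma adjusted p = 0.997). Saline replicate 2, the highest array for most of the other genes, was the lowest for Cdk1, and LDL replicate 1 was next. Its dimmer probes had differences of -0.35 and -0.16 with groups that overlapped, so the 3 probes disagreed in size. Without LDL replicate 1 the value of the brightest probe was 0.17, and without saline replicate 2 it was -0.23.

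Plk1, the Polo kinase of spindle and centrosome, measured 4.68, 5.24 and 4.97 in the saline group against 4.81, 4.83 and 4.88 in the LDL group. The LDL arrays lay within the saline range, and the difference was -0.12 (95% interval -0.48 to 0.24). Foxm1, a transcription factor that drives many of these genes, was at 0.80, 1.19 and 1.00 in saline cultures and at 0.87, 0.87 and 0.99 after LDL. Its difference of -0.09 (95% interval -0.38 to 0.21) also lay inside the spread of the saline arrays. Without saline replicate 2 it was 0.01, and that of Plk1 was 0.02.

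The phosphatases that activate CDK1 were Cdc25b at -0.24 and Cdc25c at 0.01. Cdc25c was among the 3 genes with the highest differences, with values of -1.34, -0.24 and -0.38 for saline and -0.73, -0.58 and -0.60 for LDL. Its saline arrays enclosed its LDL arrays, with saline replicate 1 below all others.

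The 2 markers of dividing cells had negative differences, with groups that overlapped. Mki67, which coats mitotic chromosomes and marks cycling cells, measured 5.04, 4.92 and 5.14 on the saline arrays and 4.90, 4.99 and 4.91 on the LDL arrays, a difference of -0.10 (95% interval -0.34 to 0.13, limma adjusted p = 0.870), and its dimmer probe gave -0.06. LDL replicate 2 was above saline replicate 2, so the groups overlapped. Top2a, the topoisomerase that untangles sister chromosomes, measured 2.72, 3.32 and 3.32 in saline cultures and 2.93, 3.14 and 3.07 in LDL cultures. Saline replicate 1 was below all LDL arrays and the other saline arrays above them, and the difference was -0.07 (95% interval -0.50 to 0.36).

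The 4 genes of the spindle assembly checkpoint had negative values, from -0.23 to -0.10. For Mad2l1, the checkpoint protein that holds back CDC20, saline arrays gave 3.38, 3.80 and 3.56 and LDL arrays 3.30, 3.35 and 3.39. Saline replicate 1 lay among the LDL arrays, so the groups overlapped, and the difference was -0.23 (limma adjusted p = 0.773). Its dimmer probes gave -0.08 and -0.12. Bub1, a checkpoint kinase at the kinetochore, had groups that did not overlap and a difference of -0.16. The related Bub1b had -0.17 and the kinase Ttk -0.10, and both had overlapping groups.

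Anaphase starts when CDC20 turns on the anaphase-promoting complex. Cdc20 measured 4.46, 4.60 and 4.34 on the saline arrays and 4.13, 4.11 and 4.16 on the LDL arrays. Every LDL array was below every saline array, with a difference of -0.33 (SE 0.10, 95% interval -0.58 to -0.09, limma adjusted p = 0.523). The other genes of this step had values nearer 0. Ube2c, the ubiquitin-conjugating enzyme of the same complex, had -0.07 (95% interval -0.66 to 0.51), and Espl1, the separase that cuts cohesin, -0.04. Pttg1, the securin that inhibits separase, was at 3.94, 4.09 and 3.97 for saline and at 3.98, 4.05 and 4.05 for LDL. Its difference was 0.03 (95% interval -0.20 to 0.25), with overlapping groups, and its dimmer probe gave 0.30.

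The chromosomal passenger complex corrects faulty attachments and moves to the midzone in anaphase, and its 4 genes had negative values. For Birc5, the survivin subunit, the saline arrays gave 5.57, 5.73 and 5.48 and the LDL arrays 5.27, 5.47 and 5.37. The groups stood apart by only 0.0065, between saline replicate 3 and LDL replicate 2, and the difference was -0.22 (limma adjusted p = 0.741). Its dimmer probes gave 0.05 and -0.22, so 1 of the 3 probes had the opposite sign.

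Aurkb, the kinase of the complex, had the most negative difference of the 40, -0.48, but also the widest interval, from -1.43 to 0.46. Its arrays gave 0.68, 0.11 and 0.98 for saline and -0.72, 0.29 and 0.77 for LDL, with LDL replicate 1 far below the rest. Without LDL replicate 1 the difference was -0.06, and without LDL replicate 3 it was -0.81. Incenp, the scaffold of the complex, had -0.13 and Cdca8, the borealin subunit, -0.20.

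The 7 kinetochore and centromere genes had negative values, from -0.26 to -0.02. Spc25, a subunit of the NDC80 complex that grips microtubules, measured 5.23, 5.40 and 5.18 in saline cultures and 5.02, 5.00 and 5.11 in LDL cultures. The groups did not overlap, and the difference was -0.22 (95% interval -0.47 to 0.02, limma adjusted p = 0.709). The other subunits of that complex were Spc24 at -0.26, Nuf2 at -0.15 and Ndc80 at -0.02, each with overlapping groups. Cenpa, the histone H3 variant that marks the centromere, had -0.26, the kinetochore motor gene Cenpe -0.14 and Cenpf, a kinetochore protein, -0.07.

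Of the 5 spindle genes 4 had negative values and 0 had groups that stood apart. Nusap1, which bundles microtubules around chromosomes, was at 1.71, 2.30 and 2.02 on the saline arrays and at 1.59, 1.75 and 1.80 on the LDL arrays. Saline replicate 1 lay below LDL replicates 2 and 3, and the difference was -0.30 (limma adjusted p = 0.773). Kif11, the motor that pushes the poles apart, had -0.28, Kif2c, which takes microtubules apart at the centromere, -0.06, Tpx2, an activator of Aurora A, -0.04 and Hmmr, a spindle-associated protein, 0.01.

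Among the 5 genes of cytokinesis were 2 of the 4 with the smallest p. Prc1, which cross-links antiparallel microtubules of the midzone, measured 4.06, 4.27 and 4.05 in the saline group and 3.63, 3.74 and 3.84 in the LDL group. The gap between the groups was 0.21, and the difference of -0.39 (SE 0.11, 95% interval -0.65 to -0.13) did not pass (limma adjusted p = 0.494). For Ect2, the exchange factor that activates RhoA at the cell equator, saline arrays gave 2.58, 2.49 and 2.37 and LDL arrays 2.19, 2.26 and 2.17. As for Prc1, every LDL array was below every saline array, with a difference of -0.27 (95% interval -0.51 to -0.04, limma adjusted p = 0.603).

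The midzone motors Kif20a and Kif23 had -0.08 and -0.07. Anln, the anillin scaffold of the contractile ring, had the highest difference of the 40, 0.06 (95% interval -0.22 to 0.33), from 3.15, 2.83 and 2.98 for saline and 3.13, 2.98 and 3.01 for LDL. These groups overlapped, with saline replicate 1 the highest array and saline replicate 2 the lowest.

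**Figure D3:**
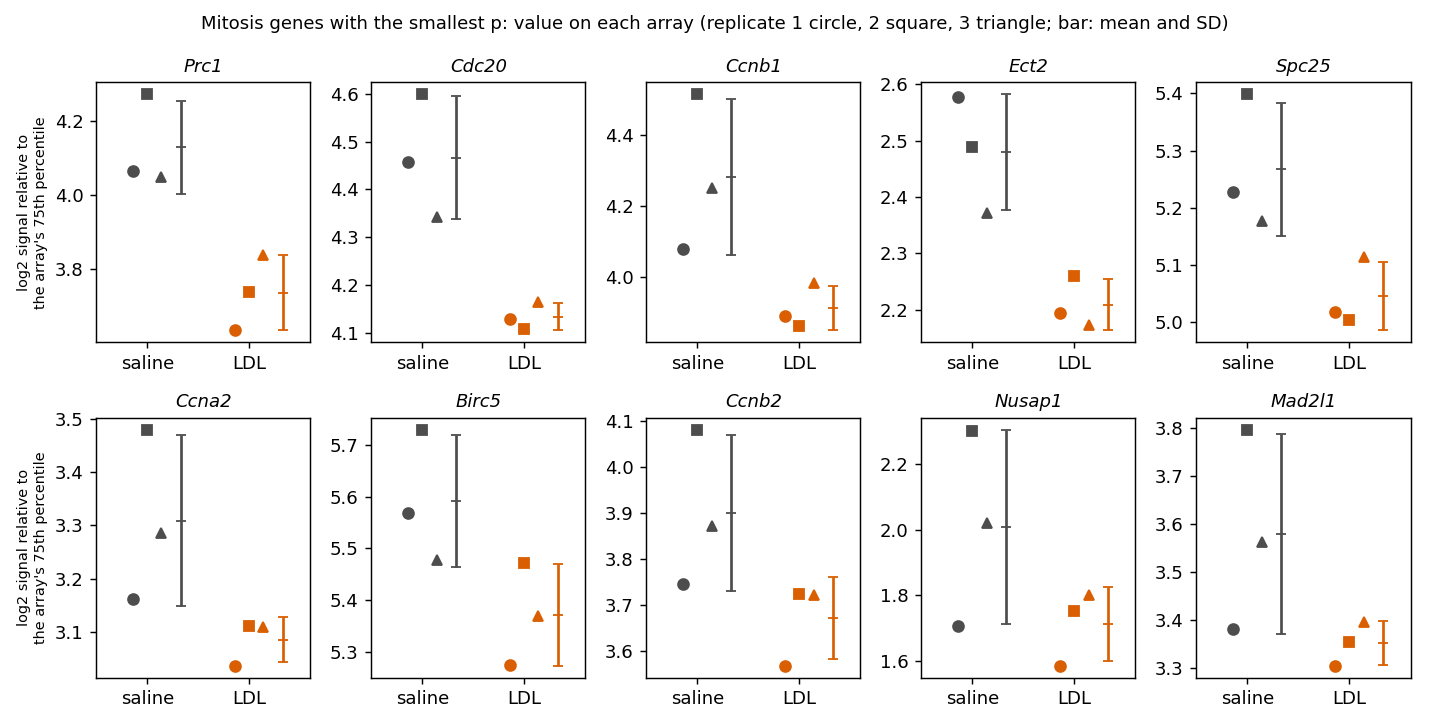
Log2 signal, with the 75th percentile of the array at 0, for the 10 genes with the smallest p, on each of 3 saline and 3 LDL arrays (symbols mark replicate numbers, bars the mean and SD, n = 3 each). In 8 of the 10 genes every LDL array lies below every saline array. Nusap1 and Mad2l1 overlap through saline replicate 1.

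The arrays did not contribute evenly. For all 40 genes the highest of the 6 arrays was a saline array, which held for 70.7% of all features. Saline replicate 2 was the highest for 29 genes, saline replicate 3 for 8 and saline replicate 1 for 3, while saline replicate 1 was the lowest of all 6 for 15 genes and LDL replicate 1 for 17. The median deviation of a gene from its own mean was 0.25 on saline replicate 2 and 0.12 on saline replicate 3, but -0.12 on saline replicate 1. On LDL replicates 1 to 3 it was -0.16, -0.03 and -0.02. Saline replicate 2 also had the lowest share of probes above background, 55.9%, against up to 66.9% on the other arrays, and the part of this in the result was not tested.

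Most pairs of the genes were positively correlated over the arrays (655 of 780). Over 780 pairs of the 40 genes, Pearson's r across the 6 arrays had a median of 0.67, from -0.98 to 1.00, a description, since all pairs share the same 6 arrays and their scaling. Anln had the lowest median r with the others, -0.84, followed by Cdk1 at -0.21 and Cenpe at -0.20, and Mki67 was at 0.15. Kif11 had the highest, 0.87.

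The saline arrays were also farther apart than the LDL arrays. The median SD of the 40 genes was 0.21 with saline and 0.08 with LDL (n = 3 each), and in 38 of the 40 the saline SD was the larger one (95%), as in 75.7% of all features. The exceptions were Aurkb, with 0.44 and 0.76, and Kif20a, with 0.06 and 0.10. Over all features the median SDs were 0.19 and 0.10. For 39 of the 40 genes the 95% interval lay inside a 2-fold change either way, and for 28 inside a 1.5-fold change. A p above the threshold does not show that the genes were unchanged.

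**Figure D4:**
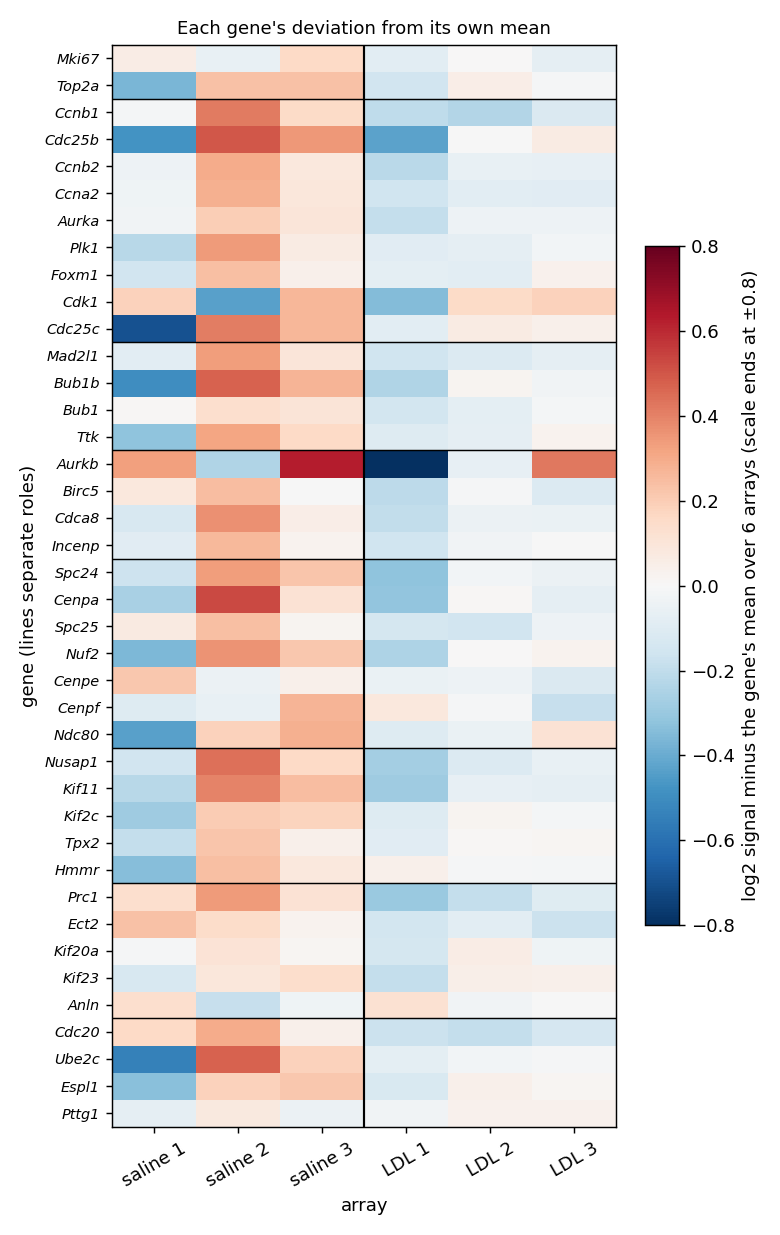
Deviation of each of the 40 genes (rows, grouped by role) from its own mean over the 6 arrays (columns), on the log2 scale, red above and blue below. Saline replicate 2 is red for most genes and saline replicate 1 blue for many, while 6 genes (Cdk1, Aurkb, Anln, Mki67, Ect2 and Cenpe) are higher on saline replicate 1 than on saline replicate 2.

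The size of the shift depended on which array was left out. Without saline replicate 1 the median was -0.26, with 38 of 40 negative and 17 of 40 at an unadjusted p below 0.05, against 9.05% of all features in that fit, whose median was 0.0009. Leaving out saline replicate 2 gave -0.06, with 27 of 40 negative, and the median of all features was then also -0.06. In that fit 4 of the 40 genes (10%) had an unadjusted p below 0.05, a smaller share than the 15.4% of all features. Without LDL replicate 1 it was -0.09, with 33 of 40 negative. Leaving out saline replicate 3, LDL replicate 2 or LDL replicate 3 gave -0.13, -0.16 and -0.18. In each of these 6 fits 0 of the 40 genes passed the limma test, while 1 to 17 had an unadjusted p below 0.05, against 4.09% to 15.4% of all features.

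For 32 of the 40 genes at least 1 of these fits moved the value by over 1.5 times, and for 17 of them the sign changed in at least 1 fit. In the other 15 the sign did not change. Among these, 11 genes were lowest without saline replicate 1 and nearest 0 without saline replicate 2, with ranges of Ccna2 -0.30 to -0.14, Ccnb2 -0.31 to -0.14, Cdc25b -0.54 to -0.06, Mad2l1 -0.33 to -0.12, Incenp -0.21 to -0.03, Cdca8 -0.31 to -0.06, Spc24 -0.41 to -0.16, Nuf2 -0.36 to -0.0017, Cenpa -0.45 to -0.06, Kif11 -0.46 to -0.15 and Nusap1 -0.45 to -0.15. The remaining ranges were Mki67 -0.16 to -0.05, Cenpe -0.20 to -0.07 and Kif20a -0.13 to -0.03, beside that of Aurkb above.

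For the 4 genes with the smallest p no array could turn the sign, since their groups did not overlap. The value of Prc1 ran from -0.44 to -0.32, of Cdc20 from -0.40 to -0.27, of Ccnb1 from -0.47 to -0.25 and of Ect2 from -0.32 to -0.22. Within slide row 1, with 2 arrays a group, the median of the 40 was -0.14 with 31 negative, and within slide row 2, with 1 array a group and so no test, it was -0.17 with 38 negative.

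**Figure D5:**
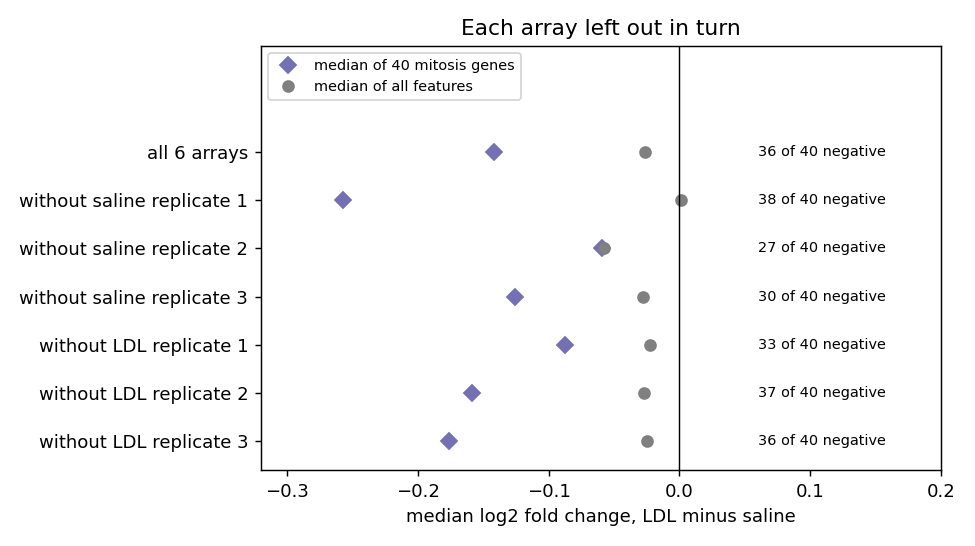
Median log2 fold change (LDL minus saline) of the 40 genes (diamonds) and of all features (circles), with all 6 arrays and with each array left out in turn. The genes' median is lowest, at -0.26, in the fit that leaves out saline replicate 1, and nearly coincides with that of all features in the fit that leaves out saline replicate 2.

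A list of 98 other mitosis genes, which shares no gene with the 40, had a tested probe for 97 (Kif14 was not matched). Of these 88 were negative (90.7%, against 56.2% of all features), with a median of -0.14. The limma threshold was passed by 0 of them, against 0.12% of all features. At an unadjusted limma p below 0.05, 17 of 97 were counted as lower and 0 as higher, against 4.5% and 2.96% of all features. Groups did not overlap in 30 lower genes and 1 higher gene, against 8.77% and 5.82%. Without saline replicate 2 the median was -0.09 with 70 negative. A CHR match was found for 45 of the 83 in the promoter table (54.2%).

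Within that list the genes of condensin, which compacts chromosomes, and of cohesin and its protectors had 12 of 12 negative values, with a median of -0.23, and in 9 of 12 the groups did not overlap, against 56.2% of all features with a negative value and 8.77% with lower groups that did not overlap. This group was picked out after its values were seen. Ncapg2, a subunit of condensin II, measured 1.88, 1.78 and 1.72 in the saline group and 1.45, 1.40 and 1.51 in the LDL group, a difference of -0.34 (limma adjusted p = 0.494). For Rad21, the cohesin subunit that separase cuts, saline arrays gave 4.41, 4.51 and 4.30 and LDL arrays 4.03, 4.07 and 4.12, a difference of -0.33 (limma adjusted p = 0.518). In both genes every LDL array was below every saline array. The median of the 12 was -0.23 without saline replicate 1 and -0.14 without saline replicate 2, with 12 of 12 negative in both. Over all 6 fits with an array left out it ran from -0.27 to -0.14, with 11 of 12 negative without LDL replicate 2 or saline replicate 3.

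The regulators of the program included the smallest p of the list. E2f7 and E2f8 encode repressors of cell cycle genes. E2f7 measured 1.36, 1.52 and 1.49 on the saline arrays and 0.99, 1.05 and 1.13 on the LDL arrays, a difference of -0.40 (limma adjusted p = 0.433), while the mean over its probes gave -0.25 (limma adjusted p = 0.624). E2f8 had -0.38 (limma adjusted p = 0.494), also with groups that did not overlap. Lin37, a MuvB subunit, was the 1 gene of the list whose LDL arrays were all above its saline arrays, at 0.21 (limma adjusted p = 0.753).

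The DNA replication list, genes of the step before mitosis, had a median of -0.11. Of its 40 genes 29 were negative (72.5%, against 56.2% of all features), and 0 passed the limma threshold, against 0.12% of all features. At an unadjusted limma p below 0.05, 6 were counted, all lower (15%, against 4.5% of all features). In 14 of the 40 (35%) the groups did not overlap with LDL lower, against 10 of the 40 mitosis genes (25%) and 8.77% of all features. Its smallest p belonged to Pola1, the catalytic subunit of polymerase alpha, at -0.37 (limma adjusted p = 0.515), and to Rrm2, Uhrf1 and Rrm1 at -0.35, -0.32 and -0.26. Its values ranged from -0.68 for Ccne2 to 0.69 for Rpa2, both with overlapping groups and 1 array far below the rest. That array was LDL replicate 1 for Ccne2, at -2.44, and saline replicate 3 for Rpa2, at -1.24. Whether the replication list differs from the mitosis genes was not tested.

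The cultures had the markers of precursor cells. Of 12 precursor markers 11 were above background on all 6 arrays, and their summed linear signal, in units of the 75th percentile of the array, ran from 349 to 422 in saline cultures and from 370 to 401 in LDL cultures. Of 10 neuron markers 6 (Tubb3, Prox1, Map2, Rbfox3, Syn1 and Calb2) were above background on all 6 arrays. The other 4, Dcx, Neurod1, Stmn2 and Neurod2, were above background on no array. Summed neuron markers ran from 14 to 16.4 (saline) and 14.1 to 14.6 (LDL), oligodendrocyte markers from 90.5 to 122 and 84.3 to 108, and microglia markers from 20.5 to 25.3 and 20.2 to 24.6, with ranges that overlapped. Vascular and fibroblast markers, of which 5 of 10 were above background on no array, ran from 14.4 to 15.1 and 13.7 to 14.3 and did not overlap, but Kdr alone carried 95.4% to 96.1% of the signal of the 4 tested genes, at -0.07 (limma adjusted p = 0.905). Astrocyte markers, with 8 of 9 above background on all 6 arrays, did not overlap either, at 162 to 186 for saline and 132 to 148 for LDL. Aldoc and Slc1a3 carried 97.5% to 98.1% of that sum, at -0.24 and -0.33 (limma adjusted p = 0.739 and 0.518), and 5 of the 8 tested markers had overlapping groups. Gfap, an astrocyte filament protein also made by adult neural stem cells, was the 1 gene of these lists that passed, and it rose by 1.35 (limma adjusted p = 0.022) from -3.26, -3.47 and -3.63 for saline to -2.25, -2.01 and -2.05 for LDL, opposite in direction to the sum. It passed in 1 of the 6 fits with an array left out, the one leaving out saline replicate 1 (highest limma adjusted p over the 6, 0.169), and the mean over its probes gave 0.75 (limma adjusted p = 0.312). With slide row as a block it did not pass (limma adjusted p = 0.0743), and within slide row 1 it had 1.24 (limma adjusted p = 0.771). The part of these markers in the mitosis values was not tested.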

How the data were processed

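Cyanine-3 cRNA made from 100 ng of total RNA was hybridized to 6 arrays on 1 slide, per the labels and file headers. The scanner files deposited hold intensity on a linear scale, the processed signal of Agilent Feature Extraction 10.7.3.1, per the file headers. The authors' deposited table holds log2 values; how they were normalized is not stated in the labels or headers. The submitters' processing notes list R 3.4.4 and limma 3.34.9.

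Log2 processed signals were set relative to the 75th percentile of non-control spots. Spots of a probe were averaged without outlier-flagged ones, unless all were flagged. The array files hold no gene names, so accessions (28331 of 55681 probes) were named from a RefSeq table of GRCm38.p6. Probes with at least 50% of spots well above background on all arrays of at least 1 group were tested, and the brightest stood for a gene. LDL and saline were compared with limma 3.58.1 in R 4.3.3 (lmFit, eBayes, two-sided, Benjamini-Hochberg over 24225 features), tested on simulated data. For single values, exact permutation of 3 against 3 arrays has a smallest p of 0.1. The members and lists were chosen with earlier results of these data known.

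Values on every array are given for the 10 genes with the smallest p, the 3 highest differences, Mki67, Top2a, Cdk1, Ccnb1, Plk1 and Foxm1, and genes whose probes differ in sign or by over 0.3; of other lists, the 4 smallest p and any gene past the threshold are named. Aurkb's arrays, Lin37 and the condensin group were singled out after their values were seen. Alternatives were other scalings, filters, probe rules, blocks, variances and each array left out; normexp used the median spot signal. Signal from near-identical transcripts cannot be separated here. Figures were drawn with matplotlib 3.10.9.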

Additional observations from a re-analysis of the deposited data

How the results depend on the processing

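In 18 of 18 alternatives 0 of the 40 genes passed limma. Their median was -0.14 with all arrays. It ran from -0.26 to -0.06 with 1 array left out, was -0.10 with 34 negative when arrays were scaled to their median (then 0 of 40 had an unadjusted p below 0.05, against 4.48% of all features), and -0.16 with the authors' values (then 6 of 40, against 8.61%). The count of all features higher after LDL, 3 here, was 16 with a robust variance trend, 5 after quantile normalization, 8 with median scaling (beside 22 lower), 9 with normexp, 8 with the authors' values (beside 27 lower) and 5 for probes detected on each of 6 arrays. It was 0 with all probes tested, 0 under a block for slide row and 0 from row 1 by itself. Lower features, 26 here, numbered 0 with all probes tested, 14 with the row block and 0 in slide row 1. Limma still gave 1773 features at an unadjusted p below 0.05 with all probes and 862 in slide row 1. With 1 array left out the counts ran from 0 to 6 higher and from 0 to 23 lower. The cause was not tested.

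Hmgcs1 passed in 11 of 18 alternatives and Gfap in 8 of 18, with 0 changes of sign. With all probes tested their limma adjusted p were 0.098 and 0.168.

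The replicate block gave 2 features higher and 1 lower, and 0 of the 40 genes passed. In that fit 4 of the 40 had an unadjusted limma p below 0.05, against 8.15% of all features. Hmgcs1 and Gfap had limma adjusted p of 0.0534 and 0.126. Deviations of same-numbered arrays correlated at 0.21, -0.04 and 0.18, and those of arrays with different numbers from -0.23 to 0.08. These few values do not settle whether the numbers pair the arrays, and the main fit did not pair them.

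Differences near 0 changed sign. Cdk1 was 0.0323 with median scaling, 0.0482 with normexp, 0.0368 with the authors' values and 0.0296 in slide row 1. Ndc80 was 0.015 with median scaling and 0.0467 in slide row 1, and Hmmr -0.0305 with normexp and -0.0202 with the authors' values. In slide row 1 Top2a was 0.014, Cenpf 0.122, Kif2c 0.00268, Espl1 0.0347 and Pttg1 -0.00118. With 1 array left out the ranges that crossed 0 were Anln -0.0204 to 0.139, Bub1b -0.455 to 0.0287, Cdc25c -0.33 to 0.221, Cdk1 -0.227 to 0.166, Cenpf -0.143 to 0.0467, Espl1 -0.221 to 0.053, Foxm1 -0.183 to 0.0112, Hmmr -0.157 to 0.135, Kif23 -0.153 to 0.00792, Kif2c -0.221 to 0.0215, Ndc80 -0.247 to 0.112, Plk1 -0.267 to 0.0152, Pttg1 -0.00507 to 0.0719, Top2a -0.273 to 0.0268, Tpx2 -0.152 to 0.0537, Ttk -0.287 to 0.0305 and Ube2c -0.364 to 0.142. The cause was not tested. Precision is limited by having 3 arrays a group.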

Other observations

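Genes of the G1 phase, which decide whether a cell starts another cycle, had values in both directions. Of 15 tested genes 11 were negative (73.3%, against 56.2% of all features), with a median of -0.13. The limma threshold was passed by 0 of them, against 0.12% of all features. At an unadjusted limma p below 0.05, 4 were lower (26.7%) and 1 was higher (6.67%), against 4.5% and 2.96% of all features. Cdkn2c, an inhibitor of CDK4 and CDK6, had the smallest p, at -0.53 (limma adjusted p = 0.401), and E2f2, an activator of S phase genes, had -0.32. Cdkn1c, another CDK inhibitor, had -0.34. Ccnd1, the cyclin that couples mitogens to the cycle, had 0.52 (limma adjusted p = 0.525), from 6.03, 6.18 and 5.92 for saline and 6.88, 6.47 and 6.33 for LDL, with every LDL array above every saline array. Cdk6 was above background on no array.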
